A study of Drosophila melanogaster with 9 samples.

Results

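The Nimrod genes of Drosophila taken here are the 10 named NimA, NimB1 to NimB5 and NimC1 to NimC4, called the family or its members below. Genes with NIM repeats but other names, such as eater, were not counted as members. The 10 genes were followed on arrays of cells sorted from the larval body wall, after ectopic expression of the transcription factor Abrupt or Knot. The members were taken by name: every probe set that the annotation of the array assigns to a Nimrod gene alone was used. All 10 genes were represented, by 11 of the 18769 probe sets tested, or 10 of 11982 named genes. NimA had 2 probe sets and the other genes 1 each. No probe set shared between genes named a member by its current symbol, and former symbols were not searched among the shared probe sets.

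The Ab ME group expressed Abrupt (UAS-abL) with the membrane marker mCD8:GFP, the Kn ME group expressed HA-tagged Knot (UAS-knL:HA) with the same marker, and the Control group expressed the marker alone. All 3 groups carried GAL4[21-7] and UAS-mCD8:GFP; Ab ME animals also had 1 copy of UAS-abL and Kn ME animals UAS-knL:HA opposite the driver, while in Control the opposite chromosome was wild type. The animals were kept at 25 °C. According to the labels, GAL4[21-7] drives expression in every class of da neuron (dendritic arborization neuron), a kind of sensory cell whose dendrites cover the larval epidermis. For each sample 80 body walls of wandering larvae of the third instar were digested and GFP-positive cells were collected, with magnetic beads, so each array pools many animals and holds whatever other cells the sort carried along. Each group had 3 biological replicates. The introduced genes do not check the labels: no probe set was named ab, and the brighter of the 2 kn probe sets read 0.53, 0.66 and 0.66 log2 units in Ab ME, 0.60, 0.53 and 0.68 in Kn ME and 1.00, 3.75 and 3.53 in Control, so the Kn ME label has no higher kn signal beside it. Whether these probes match the introduced sequence is not known here. The groups are therefore those the labels give.

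Nimrod proteins are named for the NIM repeat, a cysteine-rich relative of the EGF repeat. NimA and the C group carry a membrane-spanning segment, whereas the B group lacks one and is secreted. NimC1 is the P1 antigen on the surface of plasmatocytes, the phagocytic blood cells of the larva, and takes part in the uptake of bacteria; NimC4, also called Simu, recognises apoptotic cells in the embryo. Among the secreted members, NimB4 acts in the clearance of apoptotic cells, and NimB5 is released by the fat body and limits the number of blood cells. The genes lie in and around a cluster on chromosome arm 2L. No sequence of a member was used here.

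With ectopic Abrupt, 5 of the 10 Nimrod genes rose and 0 fell. These were NimB1, NimB2, NimB4, NimB5 and NimC1, with differences of 1.88 to 3.59 log2 units. In Kn ME, the arrays labelled as ectopic Knot, NimB1, NimB5 and NimC1 rose, by 1.67 to 2.78 log2 units, and 0 fell. NimA, NimC2, NimC3 and NimC4 gave values near the median of all probe sets in every group. In RNA from pooled cells, a higher value from more cells of a type and one from more RNA per cell cannot be told apart. Calls are from limma, a moderated linear model of the log2 values fitted to all 9 arrays, with p-values adjusted over all 18769 probe sets and a threshold of 0.05. Over all probe sets, 8.72% passed in Ab ME as higher, where 5 of 10 members did, and 5.25% as lower, where 0 did. In Kn ME 5.29% passed, 3.34% as higher, where 3 of 10 members did, and 1.95% as lower, where 0 did. The median difference of the family was 2.04 in Ab ME, against -0.06 over all probe sets, and 1.41 in Kn ME, against -0.03. Both differences use the same Control arrays.

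**Figure D1:**
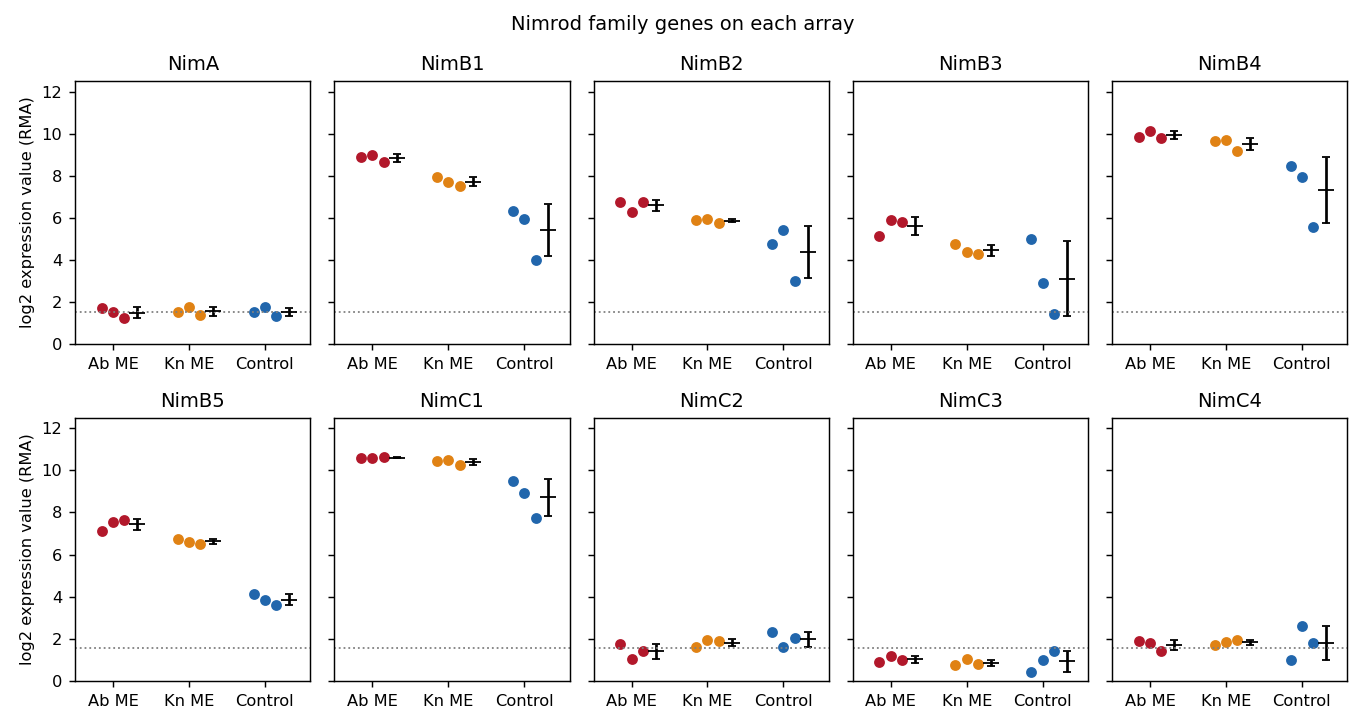
Log2 expression value (vertical axis) of the 10 Nimrod genes in Ab ME, Kn ME and Control, 1 point per array, with the mean and SD of 3 arrays beside each group; the dotted line marks 1.54, the median of all values. The means of NimB1 to NimB5 and NimC1 are highest in Ab ME and lowest in Control, with the widest spread there for each of them but NimB5. For NimB3, 1 Control array lies above every Kn ME array. The other 4 genes lie near the dotted line in all groups.

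Values are log2 units made with RMA, and a level is comparable between arrays for 1 gene, not between genes. The median of all values on the 9 arrays was 1.54, and whether a value near or below it stands above background could not be judged, since detection calls were not used here. NimB1 to NimB5 and NimC1 read above that median on every Ab ME and Kn ME array, and the other 4 members did not. These 6 genes were set apart by their values in the groups where they are high, so statements on the 6 are descriptions and carry no test.

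Of the surface receptors, NimC1 gave 10.59, 10.58 and 10.64 in Ab ME, 10.46, 10.48 and 10.26 in Kn ME and 9.50, 8.91 and 7.76 in Control. All Ab ME and Kn ME arrays were above all Control arrays, and the Control arrays were spread over more than the distance from the highest of them to Ab ME. NimC1 averaged 10.60 ± 0.03 in Ab ME, 10.40 ± 0.12 in Kn ME and 8.73 ± 0.88 in Control (mean ± SD, n = 3 each). The difference from Control was 1.88 in Ab ME (SE 0.37, limma adjusted p = 0.0133), a 3.68-fold rise. In Kn ME it was 1.67, a 3.19-fold rise (SE 0.37, adjusted p = 0.0398). The Ab ME call held in all 17 alternatives (adjusted p up to 0.0492) and the Kn ME call in 8 of 17 (adjusted p up to 0.129). In Kn ME it was lost without Control replicate 2 (adjusted p = 0.065), without any of the Ab ME or Kn ME arrays (0.07 to 0.126), after quantile normalization of the deposited values (0.0545) and with only the 6 arrays compared (0.129).

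NimB5, the secreted regulator of blood cell number, had the largest difference from Control in Kn ME. In Ab ME its difference and that of NimB1 were close, and which was larger changed with the arrays left out. NimB5 read 7.13, 7.56 and 7.62 in Ab ME, 6.76, 6.62 and 6.50 in Kn ME and 4.12, 3.84 and 3.60 in Control. The 3 groups did not overlap, and the Control arrays lay close together. The means were 7.44 ± 0.27 in Ab ME, 6.63 ± 0.13 in Kn ME and 3.85 ± 0.26 in Control (SD, n = 3 each). The differences were 3.59 in Ab ME (SE 0.19, limma adjusted p = 5.68e-05), or 12-fold, and 2.78 for Kn ME, or 6.86-fold (SE 0.19, adjusted p = 0.000518). Both calls held in all 17 alternatives, with adjusted p up to 0.0013 and 0.00788.

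NimB1, also secreted, read 8.91, 9.01 and 8.65 in Ab ME, 7.96, 7.70 and 7.51 in Kn ME and 6.34, 5.94 and 4.02 in Control. Again the 3 groups did not overlap, but Control replicate 3 was well below the other Control arrays. NimB1 differed from Control by 3.43 in Ab ME (SE 0.52, limma adjusted p = 0.00421), or 10.7-fold. For Kn ME the difference was 2.29, or 4.90-fold (SE 0.52, adjusted p = 0.0423). Without Control replicate 3 the differences were 2.72 in Ab ME and 1.59 in Kn ME, and both passed (adjusted p = 0.000656 and 0.00888). The rise in Ab ME held in all 17 alternatives (adjusted p up to 0.0216). That in Kn ME held in 8 of 17 and was lost in the same settings as that of NimC1, among them the fit without Control replicate 2 (adjusted p = 0.0532), those without any Ab ME or Kn ME array (0.0725 to 0.134) and the 6 arrays alone (0.131).

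NimB4, the secreted factor of apoptotic cell clearance, read 9.85, 10.13 and 9.80 in Ab ME, 9.64, 9.72 and 9.20 in Kn ME and 8.47, 7.93 and 5.55 in Control. All arrays of both misexpression groups were above Control, in which replicate 3 stood far below the others. The difference of 2.61 in Ab ME passed (SE 0.64, limma adjusted p = 0.0306), and that of 2.20 in Kn ME missed the threshold (SE 0.64, adjusted p = 0.0932). Without Control replicate 3 the differences were 1.73 and 1.32, and both passed (adjusted p = 0.00456 and 0.0233). The Ab ME call was lost without Ab ME replicate 1, 2 or 3 (adjusted p = 0.0844, 0.0962 and 0.0843), without Kn ME replicate 1 (0.05), after quantile normalization (0.0581) and with the 6 arrays alone (0.0821). In Kn ME 3 of 17 alternatives passed.

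NimB2 read 6.75, 6.28 and 6.76 in Ab ME, 5.90, 5.93 and 5.78 in Kn ME and 4.76, 5.41 and 3.00 in Control. The groups did not overlap, but the gaps between them were smaller than the spread within Control. The difference of 2.20 in Ab ME passed (SE 0.52, limma adjusted p = 0.0267) and that of 1.48 in Kn ME did not (SE 0.52, adjusted p = 0.156). The Ab ME call was lost without Ab ME replicate 1, 2 or 3 (adjusted p = 0.0871, 0.0614 and 0.0893), after quantile normalization (0.0744) and with the 6 arrays alone (0.0767). Without Control replicate 3 the differences were 1.51 in Ab ME (0.00759) and 0.78 in Kn ME (0.111). The Kn ME difference passed in 0 of 17 alternatives (adjusted p from 0.0534). In the gene table used for names the annotated spans of NimB1 and NimB2 overlap, and which transcript each probe set reads in the overlap was not tested.

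NimB3 had the widest Control group of the family. It read 5.13, 5.90 and 5.81 in Ab ME, 4.75, 4.36 and 4.28 in Kn ME and 4.98, 2.91 and 1.44 in Control, where replicate 3 was below the median of all values and replicate 1 above every Kn ME array. Neither the difference of 2.51 in Ab ME (SE 0.74, limma adjusted p = 0.058) nor that of 1.35 for Kn ME (SE 0.74, adjusted p = 0.363) passed. Without Control replicate 1 they were 3.44 and 2.29 and both passed (adjusted p = 0.00226 and 0.02); without Control replicate 3 they were 1.67 and 0.52 and neither did (0.0907 and 0.646). The Ab ME difference passed in 4 of 17 alternatives.

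The remaining members gave low values on all 9 arrays. Those of NimA, NimC2, NimC3 and NimC4 ranged from 0.88 to 1.90 in Ab ME, from 0.74 to 1.95 in Kn ME and from 0.40 to 2.63 in Control, and the groups of each gene overlapped. NimC4, the apoptotic cell receptor, read 1.90, 1.81 and 1.42 in Ab ME, 1.71, 1.83 and 1.95 in Kn ME and 1.00, 2.63 and 1.81 in Control. Its differences were -0.10 in Ab ME (95% interval -0.93 to 0.72, limma adjusted p = 0.868) and 0.01 in Kn ME (-0.81 to 0.83, adjusted p = 0.989). NimC2 differed by -0.58 in Ab ME (-1.12 to -0.03, adjusted p = 0.149) and by -0.18 in Kn ME (-0.72 to 0.37, adjusted p = 0.733), and NimC3 by 0.09 and -0.08. The brighter NimA probe set differed by -0.04 and 0.02 and the dimmer by -0.17 and -0.05. The signs of the differences of NimA, NimC3 and NimC4 turned under some alternatives, at values that never passed. RMA compresses differences between dim probe sets, so these intervals bound the measured difference and not that of the transcripts.

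**Figure D2:**
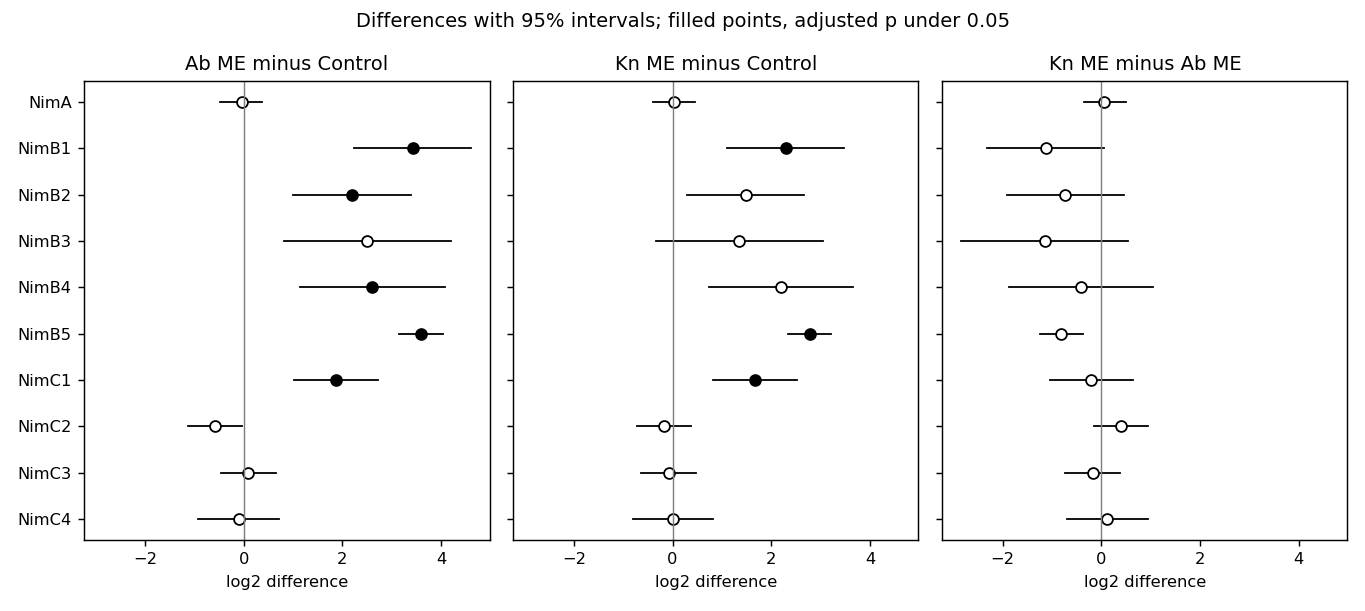
Log2 difference (horizontal axis) of each Nimrod gene between the groups named above each panel, with 95% intervals of the limma fit; filled points passed at an adjusted p under 0.05. NimB1 to NimB5 and NimC1 lie right of 0 in both comparisons with Control, 5 and 3 of them filled, and no point of Kn ME minus Ab ME is filled.

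The difference between Knot and Abrupt was tested directly. Of the 10 members 0 passed in Kn ME minus Ab ME, where 0.517% of all probe sets did. At an unadjusted limma p under 0.05 there was 1 of 10 members, NimB5, against 1643 of 18769 probe sets, a similar share. The NimB5 difference was -0.81, lower in Kn ME (SE 0.19, 95% interval -1.25 to -0.37, adjusted p = 0.156). NimB1 differed by -1.13 (interval -2.32 to 0.05, adjusted p = 0.595), NimB3 by -1.15 (-2.85 to 0.54) and NimC1 by -0.21 (-1.05 to 0.64). With only the 6 arrays of these groups in the fit, the NimB1 difference passed (adjusted p = 0.0402). For each of NimB1 to NimB5 and NimC1 all Kn ME arrays were below all Ab ME arrays, which was so for 9.85% of all probe sets, and the reverse, seen for 0 members, for 9.63%. The mean of Kn ME lay between those of Ab ME and Control for all 6 genes, as it did for 86.2% of all probe sets that passed as higher in Ab ME.

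A test for any difference among the groups passed for 3 of 10 members, NimB1, NimB5 and NimC1 (limma F test, adjusted p = 0.0111, 0.000139 and 0.0247), against 9.64% of all probe sets. The Ab ME arrays did not overlap the Control arrays for 6 members, all higher, where 17.2% of all probe sets were higher and 17.7% lower without overlap. The Kn ME arrays did not overlap the Control arrays for 5 members, all higher, against 11.0% of all probe sets higher and 10.8% lower.

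The spread of these genes was uneven between groups. The SD over 3 arrays of NimB1 to NimB5 and NimC1 ranged from 0.03 to 0.42 in Ab ME, from 0.08 to 0.28 in Kn ME and from 0.26 to 1.78 in Control. Control replicate 3 was the lowest Control array for all 6 genes, as it was for 32.7% of all probe sets. Of these 6 genes NimB5 had the narrowest Control group.

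The sort was aimed at neurons, yet plasmatocyte markers were read on all arrays, and their part in the Nimrod differences was not tested. On each array 13 of the 14 markers in this list were above the median of all values, the exception being gcm2, named after its values were seen. Their mean was 9.14, 9.15 and 9.30 in Ab ME, 8.79, 8.81 and 8.78 in Kn ME and 7.85, 7.54 and 6.80 in Control, so that Control replicate 3 was lowest here too. Of the 14 markers 12 rose in Ab ME and 0 fell, with a median difference of 1.90, and 7 rose in Kn ME and 0 fell, with a median of 1.45. Beside these counts and those of the lists below, 8.72% of all probe sets passed as higher and 5.25% as lower in Ab ME. In Kn ME 3.34% passed as higher and 1.95% as lower. Hml, the clotting protein hemolectin, rose in Ab ME by 2.87 (SE 0.38, limma adjusted p = 0.00242), and its rise in Kn ME was 2.14 (SE 0.38, adjusted p = 0.0187). The blood cell GATA factor srp rose by 2.53 and 2.06, and the matrix protein gene Ppn by 3.51 and 2.55. The Nimrod differences in Ab ME lay within the range of this list, -0.15 to 3.51, except those of NimB5, at 3.59, and NimC2, at -0.58.

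**Figure D3:**
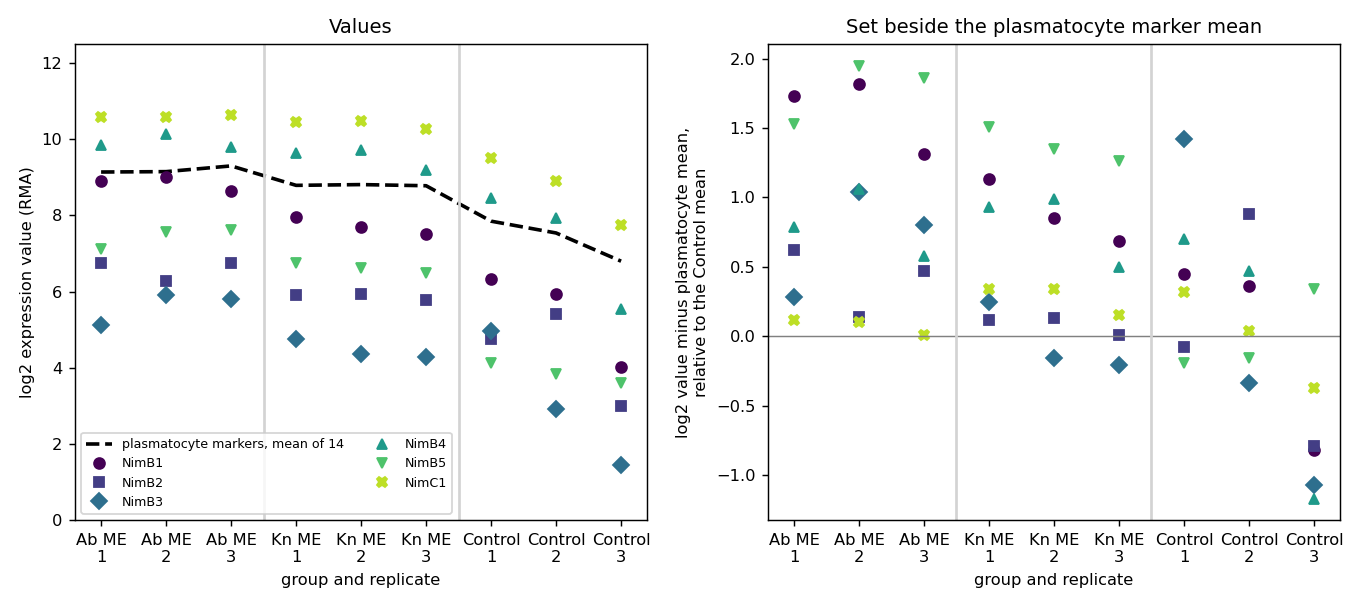
Left, log2 values of 6 Nimrod genes on each array, with the mean of the 14 plasmatocyte markers as a dashed line; right, the same genes after that mean was subtracted on each array, relative to the Control mean of each gene. NimC1 stays between -0.37 and 0.34 on the right axis, while NimB5 lies at 1.26 or more on every Ab ME and Kn ME array and at 0.34 or less in Control.

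Set beside the plasmatocyte mean on the same array, the members parted. This comparison was chosen after the values were seen and carries no test. NimC1 minus that mean, taken relative to Control, was 0.12, 0.10 and 0.01 in Ab ME, 0.34, 0.34 and 0.15 in Kn ME and 0.32, 0.04 and -0.37 in Control, so its groups overlapped. NimB5 was at 1.53, 1.95 and 1.86 in Ab ME, 1.51, 1.35 and 1.26 in Kn ME and -0.19, -0.16 and 0.34 in Control, without overlap between either misexpression group and Control. Single markers were not set on this scale. Ppn, itself in the list, differed from Control by 3.51 in Ab ME and 2.55 in Kn ME, against 3.59 and 2.78 for NimB5. The list medians were 1.90 and 1.45, so a rise beyond the list is not particular to NimB5. NimB1 was at 1.73, 1.82 and 1.31 in Ab ME, 1.13, 0.85 and 0.69 in Kn ME and 0.45, 0.36 and -0.82 in Control. NimB2, NimB3 and NimB4 overlapped with Control on this scale. The mean includes gcm2, which was below the median of all values on every array, and the ferritin gene Fer2LCH, which did not pass in Ab ME (0.60), Fer2LCH being named after its values were seen.

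Markers of other cell types moved as well, and their part in the Nimrod differences was not tested either. Of 4 crystal cell markers 3 rose with Abrupt (lz, PPO1 and PPO2) and 1 with Knot (lz), and the mean of the list ranged from 6.75 to 6.97 in Ab ME, from 5.81 to 6.41 in Kn ME and from 1.79 to 5.13 in Control. The Runx factor gene lz rose by 4.60 and 3.78 log2 units. Among 16 neuronal markers there were 9 falls and 1 rise (ct) with Abrupt, and 5 falls and the same rise with Knot. The number of them below the median of all values was 4 or 5 on Ab ME arrays, 3 on each Kn ME array and 0 on each Control array. Their mean ranged from 2.83 to 2.92 in Ab ME, from 3.40 to 3.57 in Kn ME and from 4.68 to 5.17 in Control. The synaptic vesicle gene nSyb read 3.69, 3.73 and 4.04 in Ab ME, 5.08, 4.74 and 4.35 in Kn ME and 6.78, 6.73 and 6.97 in Control. Of 9 fat body markers listed 6 were measured, and 0 of these rose in either group. Fbp1 and Fbp2 fell with Abrupt, and FASN1, named after its values were seen, fell with Knot. No glial marker of 8 passed as higher, with 3 passing as lower for Abrupt and 2 for Knot, and the glial determinant repo, which did not pass, read from 0.61 to 2.02 over all arrays, near or below the median of all values. Muscle genes (10 measured) fell in 8 cases with Abrupt and 0 with Knot. In Kn ME minus Ab ME 5 of them passed as higher, where 0.266% of all probe sets did. All 10 differences there were positive, from 0.46 to 3.56. Among 8 epidermal and cuticle genes 6 fell with Abrupt and 5 with Knot. Of 7 lamellocyte markers ItgaPS5 rose and Drip fell in Ab ME, and Drip fell in Kn ME.

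**Figure D4:**
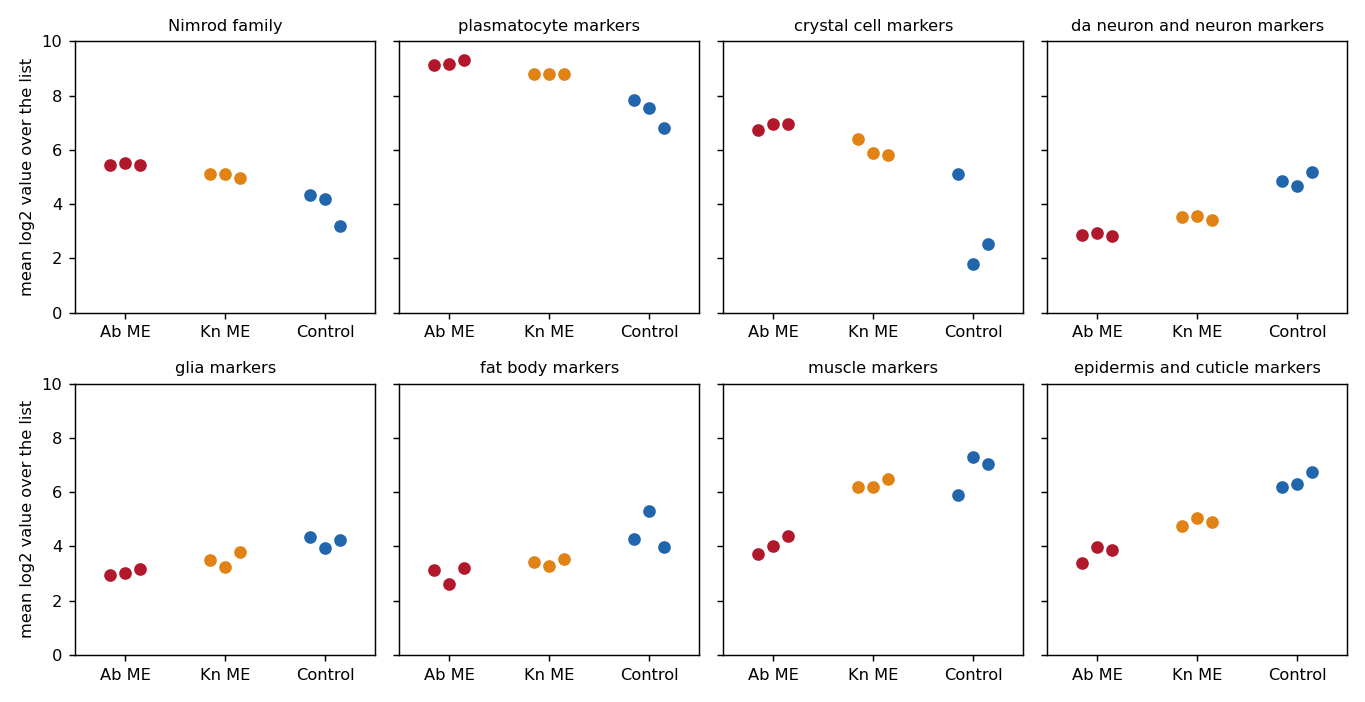
Mean log2 value (vertical axis) over each gene list, 1 point per array, in Ab ME, Kn ME and Control. The Nimrod, plasmatocyte and crystal cell means are highest in Ab ME and lowest in Control, and the neuronal, muscle and epidermal means are lowest in Ab ME.

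Other phagocytosis receptors and opsonins were split. Of 19 genes listed 15 were measured. With Abrupt 9 rose and 3 fell (median difference 1.31), and with Knot 4 rose and 1 fell (median 0.96). These counts include crq and eater, which are also in the plasmatocyte list. The engulfment receptor drpr rose by 1.40 in Ab ME (SE 0.22, limma adjusted p = 0.00456), with 1.21 for Kn ME (SE 0.22, adjusted p = 0.0188). For eater, a receptor of plasmatocytes built from NIM repeats like NimC1, the difference of 1.41 in Ab ME passed (SE 0.37, limma adjusted p = 0.0401), while that of 1.46 for Kn ME did not (SE 0.37, adjusted p = 0.0618). The scavenger receptor Sr-CI (3.02 and 2.18) and pes, of the CD36 family (2.85 and 2.49), rose in both groups, and crq, a CD36 relative that recognises apoptotic cells, rose in Ab ME (1.24), with a difference of 0.93 in Kn ME that did not pass. The falls were emp, another CD36 relative, in Ab ME (-3.35) and in Kn ME (-1.78), and in Ab ME also Dscam1 and the integrin subunit scb, both named after their values were seen.

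A further list held genes of engulfment signalling and the phagosome. Of 24 listed 13 were measured; 5 rose and 0 fell with Abrupt (median difference 1.22), 2 rose and 0 fell with Knot (median 1.01). The Rac activator Ced-12 rose by 1.44 in Ab ME (SE 0.15, limma adjusted p = 0.000755) and by 1.43 in Kn ME (adjusted p = 0.00266), and dor, of the lysosomal fusion machinery, by 1.71 and 1.64. In Ab ME prtp, a Draper ligand (1.85), the actin regulator SCAR (1.53) and CaBP1, named after its values were seen (1.22), also rose. The Draper adaptor ced-6 differed by 0.75 (adjusted p = 0.0818) and 0.37 (adjusted p = 0.457). Among 10 blood cell transcription factors measured, 4 rose (srp, ush, lz and zfh1) and Antp fell in Ab ME, and srp, lz and zfh1 rose in Kn ME. Of those that rose, srp and ush are also in the plasmatocyte list and lz is in the crystal cell list. The gene ush was named after its values were seen.

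The chromosomal order of the genes offers another description. In RefSeq's annotation (assembly Release 6 plus ISO1 MT), 23 genes lie from NimA to NimC4, 10 of them Nimrod genes and 13 others, of which 7 had a probe set. NimB1 to NimB5, He, NimC1 and Cyp28a5 follow each other in that order, and all 8 had positive differences in both groups. This run was marked off by those differences, and 6 of the 8 are the members set apart above by their values, so it carries no test. He encodes Hemese, a surface glycoprotein of blood cells, and was also in the plasmatocyte list. It read 10.23, 10.09 and 10.58 in Ab ME, between 9.92 and 10.30 in Kn ME and 8.49, 8.51 and 7.51 in Control. All arrays of both groups were above Control, and He rose by 2.13 in Ab ME (SE 0.28, limma adjusted p = 0.00245) and by 1.90 in Kn ME (adjusted p = 0.00988). The cytochrome P450 gene Cyp28a5 read 6.62, 7.48 and 7.76 in Ab ME, 6.37, 7.07 and 6.71 in Kn ME and 4.22, 5.47 and 4.81 in Control, and rose by 2.45 (adjusted p = 0.00485) and 1.88 (adjusted p = 0.0302). Of the 7 neighbours measured 2 thus passed as higher in each group, where 8.72% of all probe sets did in Ab ME and 3.34% in Kn ME. The other 5 did not pass in either group. Of these rk, the bursicon receptor gene, differed by -1.35 and -0.26, the nicotinic receptor subunit gene nAChRalpha5 by -0.64 and -0.72, and bgm, hll and CG18095 by -0.32 to 0.12. The genes between were looked up after the values of the members were known.

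**Figure D5:**
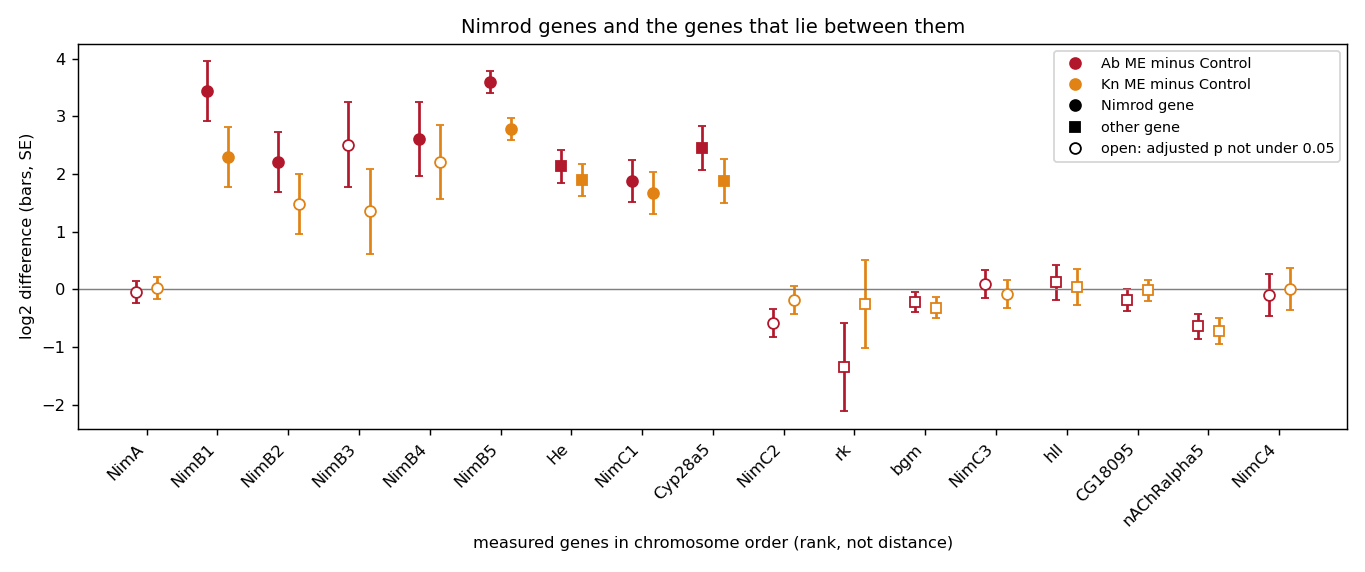
Log2 difference from Control with its SE (vertical axis) for Ab ME and Kn ME, for the 17 measured genes in chromosome order (rank, not distance), Nimrod genes as circles and others as squares; filled symbols passed at an adjusted p under 0.05. The symbols from NimB1 to Cyp28a5 lie above 1, and those from NimC2 to NimC4 and of NimA at or below 0.12.

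The genes most like each member that differed among groups were found by the root mean square difference over the 9 arrays, after each profile was centred on its own mean, among 11972 named genes outside the family. This measure describes likeness across these arrays, which share their group differences and their Control spread. Nearest to NimC1 were CG33465 (0.08 log2 units), the lectin gene lectin-24Db (0.11) and the growth factor receptor gene Pvr (0.14), itself in the plasmatocyte list. CG33465 rose by 1.85 in Ab ME and 1.61 in Kn ME, with 1.88 and 1.67 for NimC1, and read 8.81, 8.22 and 7.14 in Control. This closeness comes with its choice as the nearest profile. Nearest to NimB5 were Ppn (0.17), also in that list, the Toll ligand gene spz (0.25) and cv-d (0.31). Nearest to NimB1 were the GATA factor gene pnr (0.29), Ance-5 (0.30) and the lipocalin gene Karl (0.33). Within the family, the closest pair among the 6 brighter members was NimB1 with NimB4 (0.41), followed by NimB2 with NimC1 (0.42) and NimB4 with NimC1 (0.47).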

How the data were processed

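Total RNA of 9 samples was labelled with biotin and read on single-colour arrays. The deposited values are log2 values made with RMA by the authors, per the submitters' processing notes; their version is not given in the sources used here. That the base is 2 was taken from the size of the values. Of 18952 probe sets 183 controls were left out. Symbols were updated through the gene identifier for 13544 of 13647 probe sets with 1 symbol. The brightest probe set, by its mean over the 9 arrays, stood for a gene. With limma 3.58.1 in R 4.3.3, all arrays entered 1 model with a term for each group (6 residual and 2.44 prior degrees of freedom), with moderated 2-sided tests adjusted by Benjamini-Hochberg. The code was tested on simulated data. The members and lists were chosen with earlier results of these data known. The genes named were all members, fixed reference genes, up to 4 per list by smallest p in Ab ME, and the 3 nearest profiles. Outside this rule, chromosome neighbours were named for their position, and other genes are said in the text to be named after their values were seen. Alternatives covered scaling, filtering, prior, array weights, samples fitted, probe set choice, a replicate block and each array left out. The number of arrays limits the precision, and signal over background and batch could not be examined here.

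Array medians ranged from 1.44 to 1.67. Higher probe sets were 62.4% of the calls in Ab ME (1637 higher and 985 lower), 49.6% after quantile normalization and 76.2% after centring. In Kn ME they were 63.1% (626 and 366), 48.1% and 72.4%. With centring, the median over all probe sets shifted by 0.17 in Ab ME and 0.11 in Kn ME.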

Additional observations from a re-analysis of the deposited data

How the results depend on the processing

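No call of a member reversed its sign. NimB1, NimB5 and NimC1 passed in Ab ME, and NimB5 in Kn ME, in all 17 alternatives. The count of 5 members higher in Ab ME became 3 after quantile normalization and 3 with only the 6 arrays compared, and 3 to 6 with an array left out. The count of 3 in Kn ME became 1 and 1, and 1 to 5 with an array left out. In Kn ME minus Ab ME 0 became 1 with the 6 arrays. The F test's 3 became 5 after centring, 5 with the filter on dim probe sets (8 members tested), 5 with array weights and 5 with a robust prior with trend, and 2 to 5 with an array left out. With the replicate block the counts were 5, 3, 0 and 4. Deviations from the group mean were compared between arrays of different groups. The 9 same-numbered pairs correlated at 0.034 to 0.272, 5 of them over 0.1, and pairs of unlike number at -0.198 to 0.087. The 5 pairs over 0.1 were all of number 1 or 3, and these shared some variation. The pairs of number 2 (0.034 to 0.053) and Control 1 with Kn ME 1 (0.073) lay within the range of pairs of unlike number. The labels do not say what the numbers share, so the main fit has no block, and the source of this variation was not tested. Signs of dim members that did not pass turned. In Ab ME NimA gave 0.13 with quantile normalization, 0.13 with centring and 0 with array weights (-0.15 to 0.09 with an array left out), NimC4 0.07 with centring and 0.03 with weights (-0.51 to 0.30), and NimC3 -0.17 to 0.33. In Kn ME NimA gave -0.01 as the mean of its probe sets (-0.09 to 0.13), NimC3 0 and 0.03 with quantile normalization and centring (-0.34 to 0.16) and NimC4 -0.02 with quantile normalization (-0.39 to 0.42). In Kn ME minus Ab ME NimA gave 0 with quantile normalization (-0.07 to 0.17) and NimC4 -0.03 to 0.21. Over all probe sets, 2622 calls in Ab ME became 1726 with 6 arrays and 1400 to 3249 with an array left out. In Kn ME 992 became 337 with 6 arrays, 589 with array weights and 347 to 1609. In Kn ME minus Ab ME 97 became 149 with the filter, 241 with 6 arrays, 326 with weights and 26 to 139. The F test's 1809 became 1007 to 2317 with an array left out. The cause was not tested.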
